A study of Mus musculus with 6 samples.

Results

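The genes described here are the BCL2 family, the caspases, the mitochondrial factors and inhibitor proteins that act with them, and the receptors, ligands and adaptors of the tumour necrosis factor (TNF) superfamily, measured in NIT-1 cells given cadmium. Members were taken by name: a list of single genes, and symbols starting with Bcl2, Birc, Tnfrsf, Tnfsf or Ripk, or with Casp or Traf and a digit. The rule uses no measured value. Of 18972 genes measured under 1 symbol, 58 were members. Of the 16 single genes in the list, Bax, Bak1, Bad, Bik and Apaf1 were not analysed here, and Bcl2a1b lay only on a probe set shared by several genes. No Ripk gene had a value under a single symbol. The 58 genes comprised 6 survival proteins of the BCL2 family, the pore former Bok, 5 BH3-only proteins, 5 other Bcl2-named genes, 4 mitochondrial factors, 4 inhibitors of apoptosis, 4 apoptotic and 3 inflammatory caspases, the caspase-8-associated Casp8ap2, 12 TNF receptors, 6 TNF ligands, 4 TRAF adaptors and 3 TRAF3-interacting proteins.

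The cadmium group was NIT-1 cells plated for 24 h and then held for 24 h in medium with 4 µmol/L CdSO4, and the control group was the same cells held for that time in medium without it. Both groups had 3 arrays, which the labels number as biological replicates. NIT-1 is a mouse insulinoma line from animals that expressed the SV40 large T antigen in beta cells, a viral protein that binds p53 and Rb, so both groups carry it. Values are log2 signals as deposited, where the base of the logarithm is inferred from their range, and changes are cadmium minus control.

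Apoptosis can start from within the cell or at its surface. In the mitochondrial route, BH3-only proteins sense damage and bind the survival proteins of the BCL2 family, which otherwise hold the pore formers in check. Once the outer membrane is open, cytochrome c and other proteins leave the mitochondrion and initiator caspases activate executioner caspases, which IAP proteins restrain. At the surface, TNF receptors recruit TRAF adaptors and caspase-8, and the same receptors can instead signal survival through NF-κB. Beta cells meet both routes during diabetes, and cadmium, which binds thiols, is a known stressor of mitochondria.

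With cadmium, the survival genes Mcl1 and Bcl2l1 rose, together with Bid, Casp12, Tnfsf13b and Traf3ip3, and Aifm1 and Casp8ap2 fell. Only Mcl1 had both group means above an approximate background bound, described below, and Aifm1 had its control mean above it. Bcl2l1, Bid, Casp12, Tnfsf13b, Traf3ip3 and Casp8ap2 lay below the bound in both groups. The test was limma with Benjamini-Hochberg adjustment over all 18972 genes and a threshold of 0.05. Changes were small: the 6 increases lay between 0.21 and 0.34 on the log2 scale, and the decreases were -0.38 and -0.60. Since the RNA is from whole cultures, fewer cells of a kind and less RNA per cell cannot be told apart. In all 8 the 3 cadmium arrays did not overlap the 3 control arrays, which their selection by a test on the same values makes likely. Among all genes the groups did not overlap in 35.9%. The 2 decreases held with each array left out in turn, while the count of increases depended on the array omitted. It was 7 when cadmium replicate 1 was omitted and 5 when control replicate 3 was, but 2 for cadmium replicate 3, and 1 (Mcl1) for cadmium replicate 2, control replicate 1 or control replicate 2. The 50 other members did not pass, among them all 12 TNF receptors, all 4 TRAF adaptors, all 4 inhibitors of apoptosis and all 4 apoptotic caspases. These groups are small, and 12.2% of all genes passed.

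The number of called members was near that of genes in general. Of the 58, 6 were called higher, or 10.3%, against 6.47% of all genes, and 2 were called lower, or 3.45%, against 5.72% of all genes. In either direction 13.8% of members and 12.2% of all genes passed. An unadjusted p under 0.05 was reached by 14 members, or 24.1%, against 29.0% of all genes. The median change was 0.068 over the members and 0.044 over all genes, and the array medians themselves averaged 3.39 with cadmium and 3.34 in control (difference 0.049, exact permutation p = 0.1, two-sided, the smallest that 3 against 3 allows). With each array centred on its median the split among called members was 4 higher and 3 lower (57.1% higher, against 75% as deposited), and among all called genes 35.6% were higher, against 53% as deposited. Of all genes 4.40% were then called higher and 7.96% lower. After quantile normalization the members split into 3 higher and 2 lower (60% higher), and 43.4% of all called genes were higher, with 5.12% of all genes called higher and 6.67% lower. The members' median was then 0.020 with centring and 0.037 after quantile normalization.

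Most of these genes were dim. The 95th percentile of 5222 negative control probes, averaged over the arrays, was 6.18, and serves as an approximate background bound. Both group means exceeded it for 3 members (Mcl1, Bok and Bbc3), 1 mean did for Aifm1 and Casp2, and for the other 53 neither did. Among all genes 10.6% had both means above it, against 5.17% of members. Differences below the bound may be compressed, and a fold is given only where at least 1 mean lay above it. Of the 2467 genes with at least 1 mean above the bound 30.8% were called, and of the 5 members in that class Mcl1 and Aifm1 were.

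**Figure D1:**
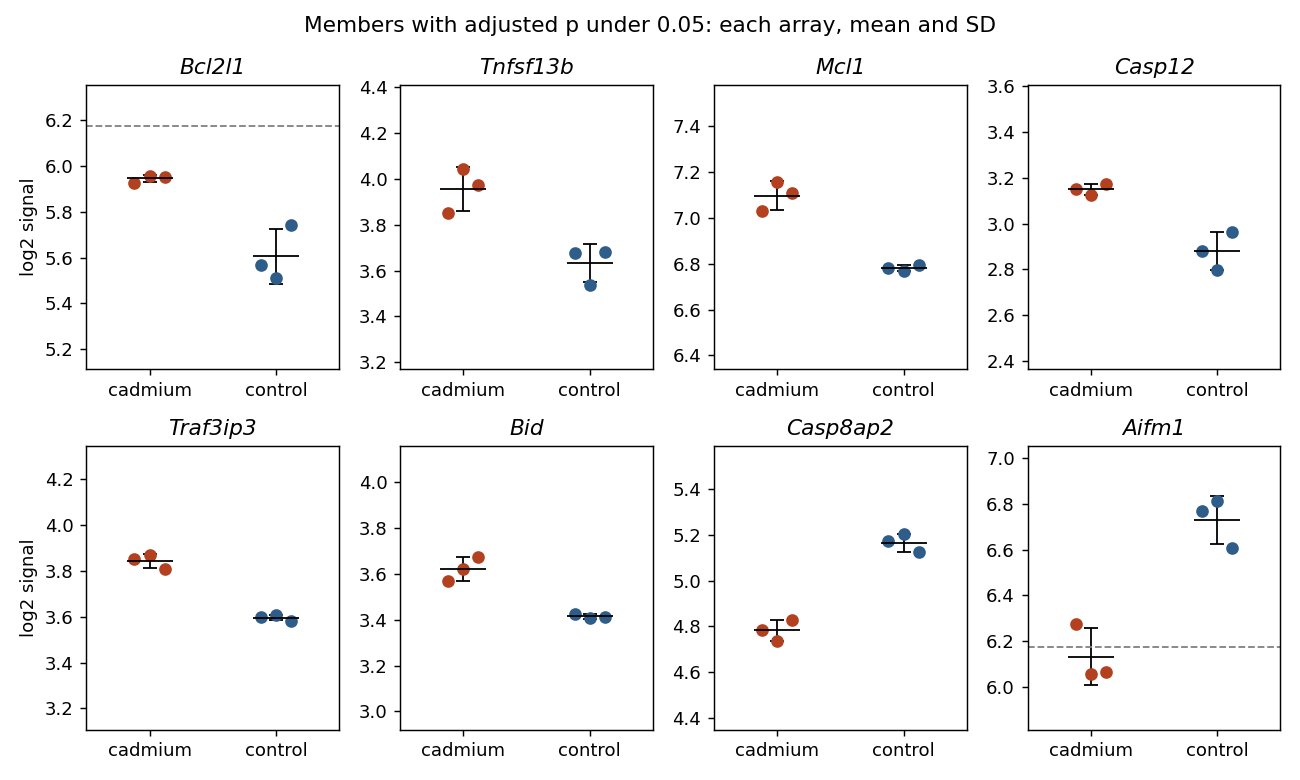
Log2 signal (y axis, each panel spanning the same range) of the 8 members past the threshold on each cadmium array (left, red) and each control array (right, blue), with mean and SD as bars and the background bound of 6.18 as a dashed line where it falls in the panel. The groups do not overlap in any panel, which selection by a test on the same values makes likely. Mcl1 alone has both groups above the bound.

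Regulatory sequence is shown for Mcl1, Aifm1 and Casp8ap2, whose calls held with each array left out in turn. It is also shown for Bcl2l1, the second survival gene that rose, whose call held in only 2 of those 6 fits. The stretches are the 300 bases from 250 before to 50 after a start site in the RefSeq annotation of GRCm38.p6, which named the 8 called members in 11 such windows. Bcl2l1 has 3 windows, and the one shown was picked for its match to the κB letters. Of the windows not shown, one held a match to the antioxidant letters and the other a match to metal response letters, both described below. Capitals mark a match to a searched motif on either strand, and windows without capitals held none.
Mcl1, chr3:95658471-95658770, plus strand: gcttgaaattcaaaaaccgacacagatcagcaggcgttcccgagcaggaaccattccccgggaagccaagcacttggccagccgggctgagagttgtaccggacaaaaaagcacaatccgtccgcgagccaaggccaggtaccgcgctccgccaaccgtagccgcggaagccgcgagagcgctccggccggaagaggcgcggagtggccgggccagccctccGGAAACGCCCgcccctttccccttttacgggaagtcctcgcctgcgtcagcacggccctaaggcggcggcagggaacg
Bcl2l1, chr2:152830668-152830967, minus strand: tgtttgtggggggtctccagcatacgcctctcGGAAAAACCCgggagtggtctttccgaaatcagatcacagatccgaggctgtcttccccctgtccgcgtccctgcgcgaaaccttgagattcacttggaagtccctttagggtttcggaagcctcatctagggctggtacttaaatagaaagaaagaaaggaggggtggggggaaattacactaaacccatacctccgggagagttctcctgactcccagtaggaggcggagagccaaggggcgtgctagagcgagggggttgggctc
Aifm1, chrX:48513514-48513813, minus strand: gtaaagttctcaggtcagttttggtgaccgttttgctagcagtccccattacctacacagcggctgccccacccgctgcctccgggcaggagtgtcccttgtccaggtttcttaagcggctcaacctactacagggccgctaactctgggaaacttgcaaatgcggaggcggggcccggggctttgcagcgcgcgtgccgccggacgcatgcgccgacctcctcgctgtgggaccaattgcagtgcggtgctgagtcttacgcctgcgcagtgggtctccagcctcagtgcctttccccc
Casp8ap2, chr4:32615220-32615519, plus strand: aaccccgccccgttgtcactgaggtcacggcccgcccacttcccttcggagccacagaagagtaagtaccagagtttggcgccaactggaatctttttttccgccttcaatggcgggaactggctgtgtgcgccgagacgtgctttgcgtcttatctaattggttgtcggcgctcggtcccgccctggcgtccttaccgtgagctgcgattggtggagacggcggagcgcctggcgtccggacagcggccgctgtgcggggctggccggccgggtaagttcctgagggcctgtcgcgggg

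The motifs searched were the κB letters of NF-κB (GGG and TTTCC with 2 unspecified bases between), the antioxidant element TGACNNNGC bound by Nrf2, the metal response letters TGCGCNC and TGCACNC bound by Mtf1, the heat shock letters (GAA, TTC and GAA with 2 unspecified bases between each), the CRE letters TGACGTCA and the Atf4 letters TGATGNAA. They were read on both strands, overlaps allowed. The κB letters occurred in windows of 2 of the 8 called members, at -28 to -19 from the start site of Mcl1 as GGAAACGCCC and at -218 to -209 in the Bcl2l1 window as GGAAAAACCC, both on the reverse strand. They occurred in 1.63% of the 32851 windows of this length. For each motif a member counts if any of its windows matched, and the 8 members have 11 windows. Counts of members and shares of windows are thus unlike measures, and no enrichment is drawn from them. The antioxidant letters occurred in windows of 3 called members (Bcl2l1, Casp12 and Tnfsf13b) and in 12.4% of all windows. The metal response letters TGCGCNC occurred for Bcl2l1 and Bid and in 15.4% of all windows, and TGCACNC for Casp12 and Traf3ip3 and in 12.6%. The heat shock, CRE and Atf4 letters were found in no window of the 8 genes, and in 0.603%, 1.79% and 3.97% of all windows. A match describes letters only, and binding was not measured.

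Among survival proteins, Mcl1 and Bcl2l1 rose and 4 did not pass. Mcl1, a short-lived protein that sequesters BH3-only proteins and Bak, had signals of 7.03, 7.16 and 7.11 on the cadmium arrays and 6.78, 6.77 and 6.79 on the control arrays. All cadmium values exceeded all control values, and the control arrays lay within a few hundredths of each other. The change was 0.32 ± 0.05 (SE), a 1.25-fold higher signal (limma adjusted p = 0.0104). Bcl2l1, which encodes Bcl-xL, had 5.93, 5.96 and 5.95 on the cadmium arrays and 5.57, 5.51 and 5.74 on the control arrays. The cadmium arrays were nearly equal, control replicate 3 was the highest control, and both group means lay below the bound. The change was 0.34 ± 0.07 (SE) with a limma adjusted p of 0.0215. This call was lost without cadmium replicate 2, cadmium replicate 3, control replicate 1 or control replicate 2, where the adjusted p reached 0.0801.

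Bcl2, the founding survival gene, had 4.56, 4.80 and 4.72 on the cadmium arrays and 4.57, 4.66 and 4.55 on the control arrays. The groups overlapped, and the change was 0.10 with a 95% interval of -0.08 to 0.27 (limma adjusted p = 0.428). Bcl2a1a, Bcl2a1c and Bcl2a1d, mouse copies of the survival gene A1, had changes of 0.12, 0.12 and 0.01, with all arrays near the bottom of the scale, from 1.86 to 2.22. They are near-identical copies, so their signals may not be separate. The median change of the 6 survival genes was 0.119 as deposited, 0.070 with arrays centred and 0.072 after quantile normalization.

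Bok, a relative of Bax and Bak that forms pores without needing BH3-only proteins, was measured above the bound in both groups. Its signals were 6.64, 6.94 and 6.89 on the cadmium arrays and 6.58, 6.51 and 6.39 on the control arrays. The groups did not overlap, with cadmium replicate 1 close to control replicate 1. The change of 0.33 ± 0.09 (SE), a 1.26-fold higher signal, missed the threshold (limma adjusted p = 0.0609). Without cadmium replicate 1 the change was 0.42 and passed (limma adjusted p = 0.0172). It also passed with array weights or with dim genes filtered out (adjusted p = 0.0231 to 0.0401). It missed with any other array left out (limma adjusted p = 0.097 to 0.17) and with arrays centred (0.0979). The change also missed after quantile normalization (0.0563) and with a block on the replicate number (0.121).

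Of the 5 BH3-only genes, Bid rose and 4 did not pass. Bid, which caspase-8 cleaves to link the death receptors to the mitochondrion, had 3.57, 3.62 and 3.67 on the cadmium arrays and 3.43, 3.41 and 3.41 on the control arrays. The control arrays were nearly equal and all cadmium arrays lay above them, at levels far below the bound. The change was 0.21 ± 0.05 (SE) (limma adjusted p = 0.0409). It passed in only 1 of 6 fits with an array left out (without cadmium replicate 1), with an adjusted p of up to 0.127 in the others, and it did not pass with arrays centred (0.0997) or after quantile normalization (0.0915).

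Bbc3, which encodes the p53 target Puma, had 6.38, 6.29 and 6.30 on the cadmium arrays and 6.20, 6.28 and 6.20 on the control arrays. Both means lay above the bound, and cadmium replicate 2 was nearly level with control replicate 2. The change was 0.09 with a 95% interval of -0.03 to 0.22 (limma adjusted p = 0.29). Hrk, a BH3-only protein of neurons, changed by 0.13 (adjusted p = 0.247), with cadmium replicate 2 the highest array. Bcl2l11, encoding Bim, and Bmf, which is held at the cytoskeleton, had changes of -0.04 and -0.00 with overlapping groups. Their 95% intervals were -0.22 to 0.14 and -0.12 to 0.12.

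Of the 5 other Bcl2-named genes 0 passed, and 0 had an unadjusted p under 0.05, against 29.0% of all genes. Their changes lay between -0.13 for Bcl2l10, whose control replicate 3 stood at 3.63 against 3.22 and 3.05 on the other controls, and 0.13 for Bcl2l12. Bcl2l13, a mitophagy receptor of the mitochondrial outer membrane, had all cadmium arrays below all control arrays with a change of -0.09 (limma adjusted p = 0.295).

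Of the 4 mitochondrial factors, Aifm1 fell, and it had the largest change of all 58 genes. Aifm1 encodes apoptosis-inducing factor, a flavoprotein that supports assembly of the respiratory chain and moves to the nucleus in caspase-independent death. Its signals were 6.27, 6.06 and 6.07 on the cadmium arrays and 6.77, 6.81 and 6.61 on the control arrays. The lowest control array exceeded the highest cadmium array, cadmium replicate 1, by more than the range of either group. The change was -0.60 ± 0.08 (SE), an at least 1.47-fold lower signal with cadmium, since the cadmium mean lay just below the bound (limma adjusted p = 0.00539). The call held in all 6 fits with an array left out, with changes of -0.67 to -0.56 and adjusted p of 0.00482 to 0.0289.

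Cycs, which encodes cytochrome c of the respiratory chain and the apoptosome, had 4.06, 4.24 and 4.37 on the cadmium arrays and 3.94, 3.95 and 3.91 on the control arrays. The cadmium arrays were spread, yet each lay above the control arrays. The change of 0.29 ± 0.08 (SE) missed the threshold (limma adjusted p = 0.0647) and passed without cadmium replicate 1 (0.0158). It missed with any other array left out (limma adjusted p = 0.128 to 0.165), with arrays centred (0.12) and after quantile normalization (0.116). Endog, a mitochondrial nuclease, changed by 0.16 (adjusted p = 0.173), with the lowest cadmium array just above the highest control. Diablo, also called Smac, which frees caspases from IAP proteins, changed by -0.00, with a 95% interval of -0.14 to 0.13.

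Of the 4 measured inhibitors of apoptosis 0 passed by the brightest probe set, and 0 had an unadjusted p under 0.05. The shares over all genes were 12.2% and 29.0%, and the group is small. Xiap, which blocks caspases directly, had 4.12, 4.19 and 4.23 on the cadmium arrays and 4.03, 4.09 and 4.10 on the control arrays. Each cadmium array lay above each control array by a narrow margin, and the change was 0.11 (limma adjusted p = 0.229). Birc3 and Birc7 changed by 0.04 and 0.12 (adjusted p = 0.631 and 0.342).

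Birc2, a ubiquitin ligase of TNF receptor complexes also called cIAP1, was read by 2 probe sets that disagreed. The brighter one, which stood for the gene, carries a clone name that RefSeq lists as a synonym of Birc2, and had 6.06, 6.01 and 6.17 on the cadmium arrays and 5.99, 5.75 and 5.95 on the control arrays, a change of 0.19 (adjusted p = 0.173). The dimmer one, which carries the symbol Birc2, had 2.63, 2.63 and 2.70 on the cadmium arrays and 2.90, 3.02 and 2.90 on the control arrays. Its change was -0.29, and with this set standing for the gene Birc2 was called lower (limma adjusted p = 0.019), which made 3 members lower in place of 2. The direction for Birc2 is therefore not settled by these probe sets.

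Of the 4 apoptotic caspases 0 passed, and 1, Casp2, had an unadjusted p under 0.05, against 12.2% and 29.0% of all genes. Casp2, an initiator caspase activated on the PIDDosome, had 6.13, 6.05 and 6.04 on the cadmium arrays and 6.28, 6.36 and 6.17 on the control arrays. All cadmium arrays lay below all control arrays by a narrow margin, and the change was -0.20 ± 0.06 (SE) (limma adjusted p = 0.0944). It passed as lower with arrays centred (change -0.24, adjusted p = 0.0462) and with array weights (-0.23, 0.0316). It missed after quantile normalization (limma adjusted p = 0.201) and in every fit with an array left out (0.0528 to 0.247). Casp8, the initiator at death receptors, changed by 0.07, with a 95% interval of -0.07 to 0.21. Casp9, the initiator of the apoptosome, changed by 0.02 (-0.10 to 0.14), and the executioner Casp6 by -0.00 (-0.12 to 0.11). The groups overlapped for these 3, whose signals all lay below the bound.

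Of the inflammatory caspases Casp12 rose, while Casp1 and Casp4 changed by -0.01 and -0.02 and did not pass. Casp12, a caspase of rodents associated with the endoplasmic reticulum, had 3.15, 3.12 and 3.17 on the cadmium arrays and 2.88, 2.80 and 2.96 on the control arrays. The 3 cadmium arrays lay close together above the controls, far below the bound. The change was 0.27 ± 0.06 (SE) (limma adjusted p = 0.0281). It passed in 1 of 6 fits with an array left out (without control replicate 3), with an adjusted p of up to 0.0953 in the others, and missed with arrays centred (0.0588) and after quantile normalization (0.0618).

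Casp8ap2, also called FLASH, which was found as a caspase-8 partner and acts in processing of histone mRNA, fell. Its signals were 4.78, 4.74 and 4.83 on the cadmium arrays and 5.17, 5.20 and 5.12 on the control arrays. Both groups were tight and lay well apart, though below the bound. The change was -0.38 ± 0.05 (SE) (limma adjusted p = 0.0048), and the call held in all 6 fits with an array left out, with adjusted p of 0.00928 to 0.0285. It is a member by its name and is not a caspase.

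**Figure D2:**
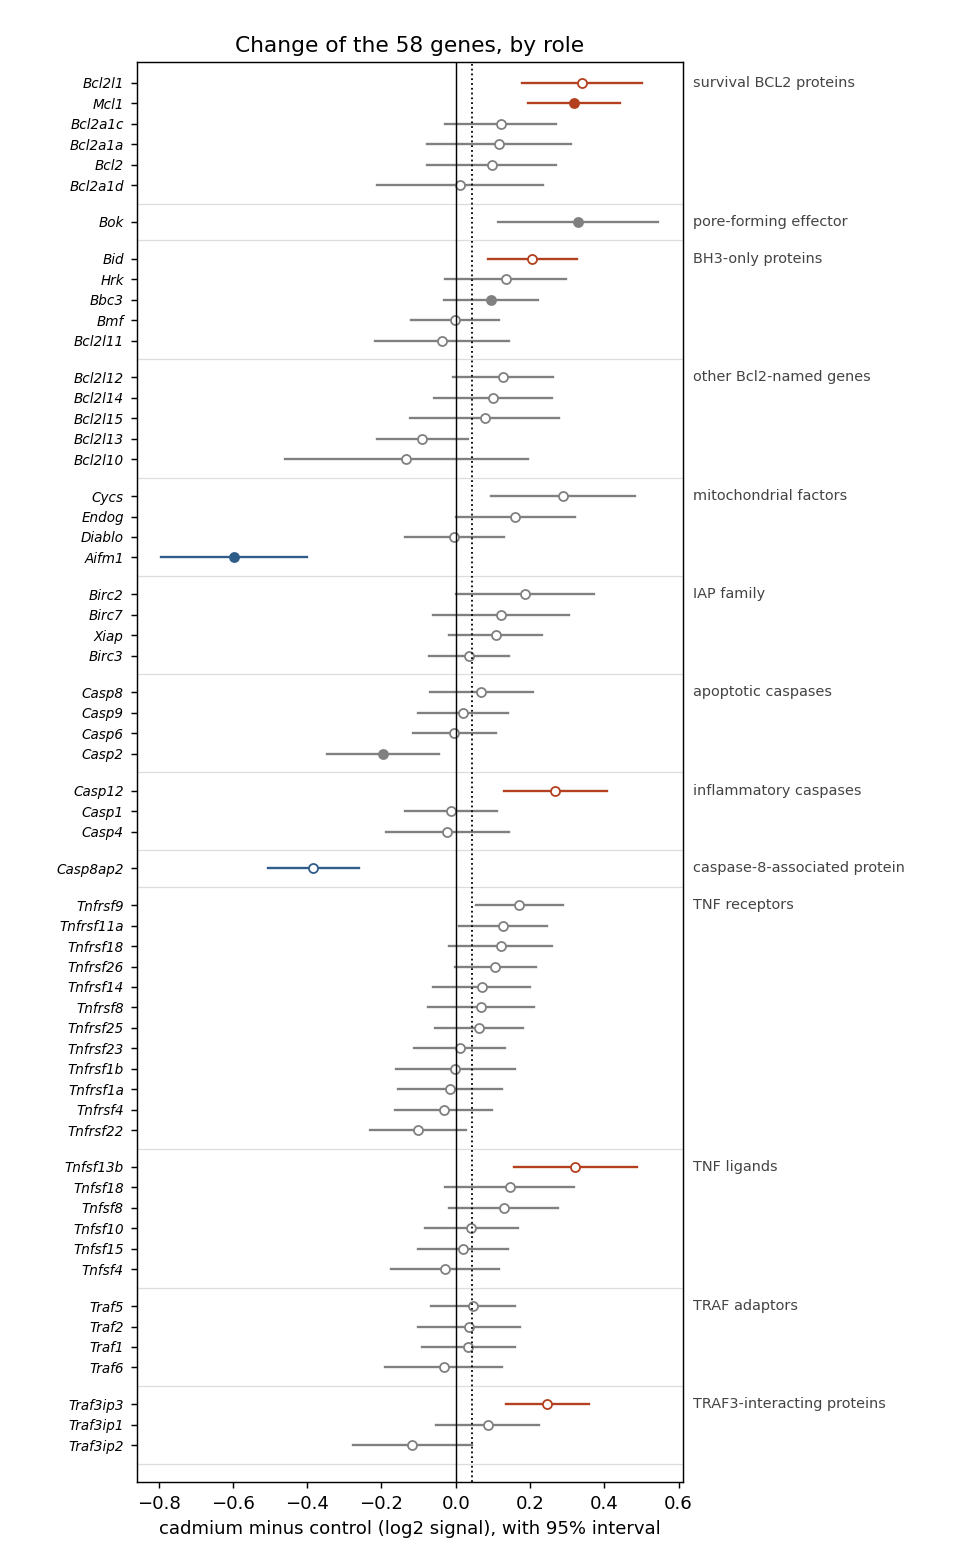
Change of each of the 58 genes (x axis, cadmium minus control in log2 signal, point and 95% interval from limma), grouped by role, with red for called higher, blue for called lower and grey for not called. Filled points mark genes with at least 1 group mean above the background bound, and the dotted line marks the median change of all genes, 0.044. Aifm1 lies farthest from 0, and 50 intervals are grey.

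Of the 12 TNF receptors 0 passed, and 2 (Tnfrsf9 and Tnfrsf11a), or 16.7%, had an unadjusted p under 0.05, against 29.0% of all genes. Their changes lay between -0.10 for Tnfrsf22 and 0.17 for Tnfrsf9, with a median of 0.065. Tnfrsf1a, the main receptor for TNF, which carries a death domain, had 4.55, 4.67 and 4.62 on the cadmium arrays and 4.69, 4.65 and 4.56 on the control arrays. The groups overlapped, and the change was -0.02 with a 95% interval of -0.16 to 0.12. Tnfrsf1b, the second TNF receptor, which lacks a death domain, changed by -0.00. Tnfrsf25, the other measured receptor with a death domain, changed by 0.06 (adjusted p = 0.444).

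Tnfrsf9, the costimulatory receptor 4-1BB, had 4.38, 4.35 and 4.35 on the cadmium arrays and 4.23, 4.21 and 4.14 on the control arrays. The cadmium arrays lay together above the controls, and the change of 0.17 ± 0.05 (SE) missed the threshold (limma adjusted p = 0.0698). Tnfrsf11a, the receptor for RANKL, changed by 0.13 (adjusted p = 0.145). Tnfrsf22 and Tnfrsf23, decoy receptors for Trail in the mouse, changed by -0.10 and 0.01. Tnfrsf4, Tnfrsf8, Tnfrsf14, Tnfrsf18 and Tnfrsf26 changed by -0.03 to 0.12. All 12 receptors were below the bound in both groups.

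Of the 6 TNF ligands, Tnfsf13b rose and 5 did not pass. Tnfsf13b encodes BAFF, a survival factor for B lymphocytes. Its signals were 3.85, 4.04 and 3.97 on the cadmium arrays and 3.68, 3.54 and 3.68 on the control arrays. Every cadmium array exceeded every control array, and both means were below the bound. The change was 0.32 ± 0.07 (SE) (limma adjusted p = 0.0282). The call was lost without cadmium replicate 2 or 3 or control replicate 1 or 2, at adjusted p of up to 0.0967, and after quantile normalization (0.0538). Tnfsf10, which encodes the death ligand Trail, had 2.68, 2.67 and 2.65 on the cadmium arrays and 2.58, 2.59 and 2.70 on the control arrays, with overlapping groups and a change of 0.04 (95% interval -0.08 to 0.17). Tnfsf4, Tnfsf8, Tnfsf15 and Tnfsf18 changed by -0.03, 0.13, 0.02 and 0.15.

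TRAF adaptors carry the signal of TNF receptors to kinases. Of the 4 measured 0 passed and 0 had an unadjusted p under 0.05, against 29.0% of all genes, and their groups overlapped throughout. Traf1, Traf2, Traf5 and Traf6 changed by 0.03, 0.04, 0.05 and -0.03. The 95% interval for Traf2, which recruits the cIAP ligases, was -0.10 to 0.17.

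Of the 3 TRAF3-interacting genes, Traf3ip3 rose. Traf3ip3, a membrane protein known from lymphocytes, had 3.85, 3.87 and 3.81 on the cadmium arrays and 3.60, 3.61 and 3.58 on the control arrays. Both groups were tight and did not overlap, and both lay below the bound. The change was 0.25 ± 0.05 (SE) (limma adjusted p = 0.0176). It passed in 3 of 6 fits with an array left out, and was lost without cadmium replicate 2, control replicate 1 or control replicate 2 (adjusted p up to 0.0697). Traf3ip2, the adaptor Act1 of interleukin-17 receptors, changed by -0.12. Traf3ip1, a protein of cilia, changed by 0.09, and neither passed.

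The groups did not overlap in 25 of the 58 genes: cadmium lay above control in 21, or 36.2%, and below in 4, or 6.9%. Among all genes cadmium lay above in 22.9% and below in 13.0%, or 35.9% in all. With each array centred on its median, the members split into 11 above (19%) and 7 below (12.1%), against 13.7% and 19.5% of all genes. The share of members above control therefore depends on the scaling of the arrays.

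**Figure D3:**
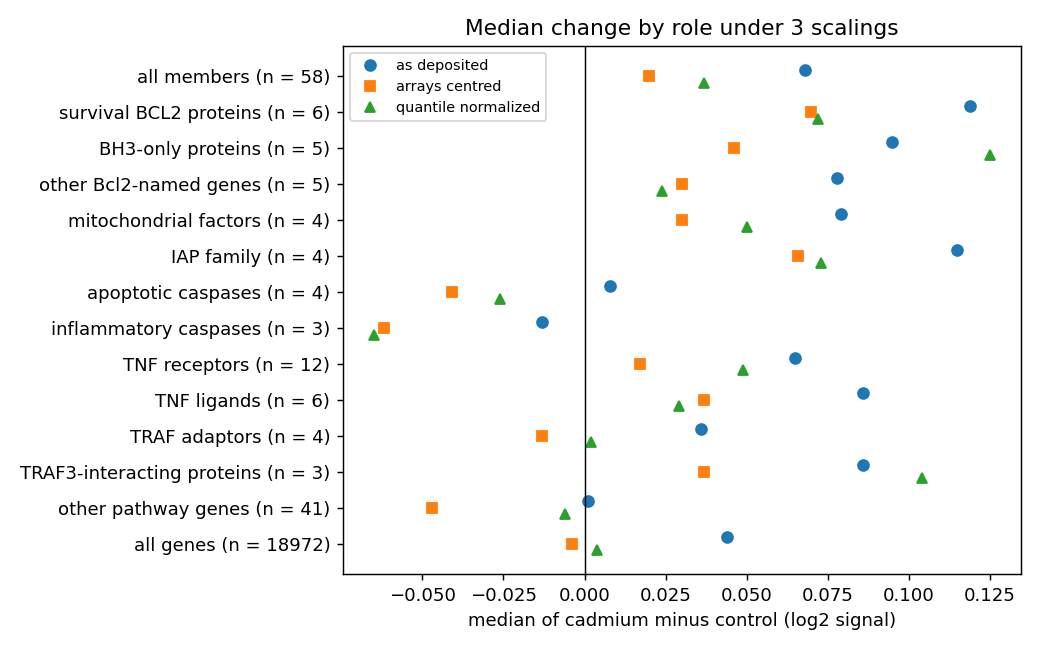
Median change (x axis, cadmium minus control in log2 signal) of each role group of at least 3 genes, of all 58, of 41 other pathway genes and of all 18972 genes, as deposited (circles), with arrays centred (squares) and after quantile normalization (triangles). The median of all genes is 0.044, -0.004 and 0.004 under these scalings, and the apoptotic caspases, TRAF adaptors and other pathway genes lie on both sides of 0.

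Few pathway genes outside the name rule passed at the adjusted threshold. The list of 83 held death domain adaptors, NF-κB signalling genes and effectors of other forms of cell death, with others such as Dap3, Vdac3 and Phlda3. Of these 83, 41 were measured under 1 symbol, 1 rose and 1 fell (4.88% called, against 12.2% of all genes). Their median change was 0.001, or -0.047 with arrays centred. An unadjusted limma p under 0.05 was reached by 13 of the 41, or 31.7%, against 29.0% of all genes. Cadmium lay above control without overlap in 19.5% and below in 19.5%, against 22.9% and 13.0% of all genes. Map3k7, which encodes the kinase Tak1 that links TRAF adaptors to NF-κB, fell, at 6.35 ± 0.11 with cadmium and 6.71 ± 0.08 in control (SD, n = 3 each), a 1.29-fold lower signal (limma adjusted p = 0.0211). Bag1, a co-chaperone that binds Bcl2, rose, at 6.37 ± 0.05 with cadmium and 6.01 ± 0.17 in control (adjusted p = 0.0428). With an array left out Map3k7 passed in 2 of 6 fits (without cadmium replicate 1 or control replicate 3, at an adjusted p of up to 0.0774 in the others) and Bag1 in 1 of 6 (without control replicate 3, at up to 0.133 in the others). Bag1 also missed the threshold with arrays centred (limma adjusted p = 0.0744). Cflar, which encodes the caspase-8 inhibitor cFLIP, Tradd, a death domain adaptor, and Fasl, a death ligand, were picked out for their role after their values were seen. They changed by 0.12, -0.08 and 0.07 and did not pass.

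Markers of the arrays and cells bear on these values as follows. Mt2, a metallothionein, and Hmox1, haem oxygenase, which respond to cadmium, stood at 10.09 ± 0.11 with cadmium and 7.94 ± 0.28 in control and at 7.58 ± 0.26 with cadmium and 5.41 ± 0.26 in control (SD, n = 3 each). Of 21 beta cell markers 11 were measured, all with both means below the bound, and 1 rose (Kcnj11, a potassium channel subunit, by 0.29), a call lost with arrays centred (limma adjusted p = 0.0665). Their summed log2 level was 45.29 to 45.38 with cadmium and 43.52 to 44.83 in control, and these ranges overlapped with arrays centred (44.99 to 45.11 with cadmium and 43.78 to 45.19 in control). The insulin gene Ins2 was among the 11, at 5.29 with cadmium and 5.27 in control, and so was Iapp, at 1.76 and 1.90. Why these genes lay below the bound in an insulinoma line was not tested. Many TNF receptors and ligands are genes of immune cells. Of 6 measured immune markers all were below the bound in both groups, the pan-leukocyte gene Ptprc among them at 2.14 to 2.22 with cadmium and 2.10 to 2.15 in control, and 1 rose (Cd8a, by 0.25), a call lost with arrays centred (limma adjusted p = 0.0986). The other 5 changed by -0.05 to 0.06, and the median of the 6 was 0.016. The summed log2 level of the 6 was 21.0 to 21.29 with cadmium and 20.84 to 20.97 in control as deposited, and the ranges overlapped with arrays centred (20.9 to 21.12 with cadmium and 20.94 to 21.14 in control). Their part in the changes of Tnfsf13b and Traf3ip3 was not tested. Of 4 measured markers of stroma and endothelium, the collagen gene Col3a1 fell. It had 7.87, 8.21 and 8.10 on the cadmium arrays and 8.94, 9.06 and 9.20 on the control arrays, above the bound in both groups, a change of -1.01 and a 2.01-fold lower signal (limma adjusted p = 0.00183), and it had the largest change among the markers of the 5 lists. The other 3, Col1a2, Cdh5 and Kdr, changed by -0.04, 0.21 and -0.27 and did not pass. The summed log2 level of the 4, Col3a1 included, was 21.48 to 22.7 with cadmium and 23.19 to 23.5 in control. The part of these 4 markers in the changes of the members was not tested. Of 2 markers of other islet cells and 4 of exocrine and duct cells 0 passed, and 1, Cpa1, had an unadjusted p under 0.05.

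**Figure D4:**
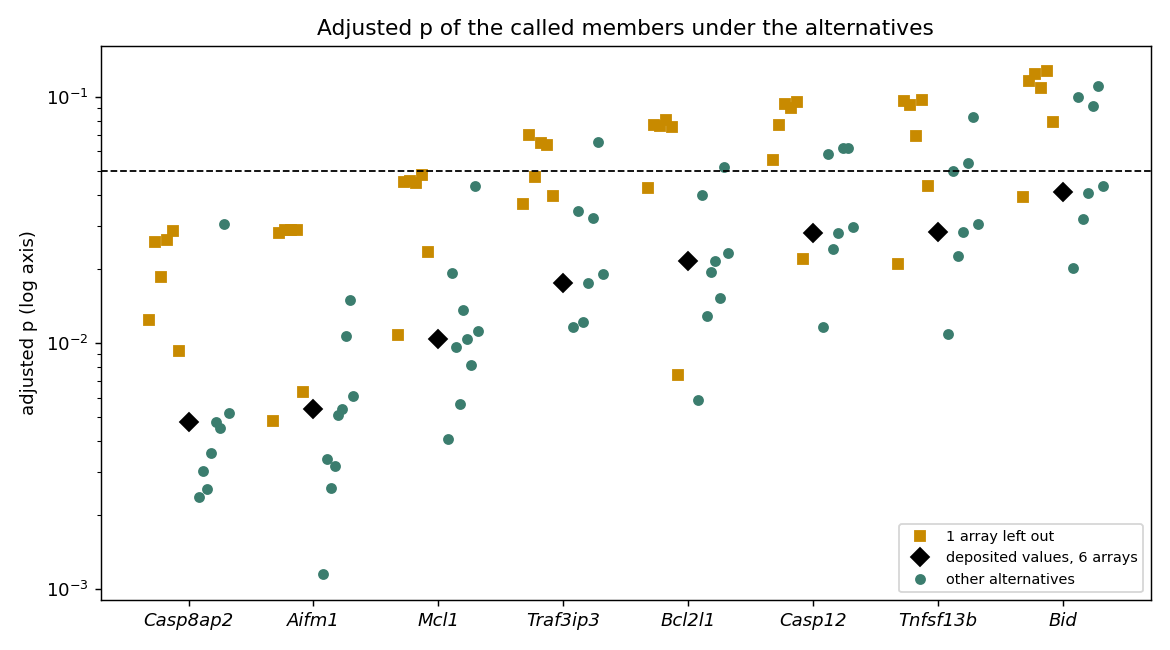
Adjusted p (y axis, log scale) of the 8 called members with 6 arrays on the deposited values (black diamonds), with 1 array left out (yellow squares) and under the other alternatives at the same threshold without a minimum change (green circles). The dashed line is the threshold of 0.05. All points of Casp8ap2, Aifm1 and Mcl1 lie below it, and each of the other 5 genes has points on both sides.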

How the data were processed

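Gene expression was measured in NIT-1 cells on 6 arrays, 3 with cadmium and 3 controls, grouped by sample title. The values are log2 signals deposited by the authors, 1 per probe set and array. The base of the logarithm is inferred from their range, and how signals were extracted and normalized was not given in the sources used here. The table held 46478 rows, of which 6732 were control probes. Of 39746 transcript clusters 19205 had 1 gene, 940 several and 19601 none in the platform annotation, with symbols updated through RefSeq (GRCm38.p6) by gene identifier, symbol or synonym. The brightest probe set stood for each of 18972 genes, of which 161 had over 1. The number of columns of values given to no sample was 0.

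Differences between the groups were fitted on the deposited values by lmFit and eBayes (limma 3.58.1, R 4.3.3) without further terms, with Benjamini-Hochberg adjustment over 18972 genes, a threshold of 0.05 and two-sided p-values. Every adjusted p is from limma. The labels do not say that replicates came from separate passages, and p-values then reflect only the spread among these 6 samples, which may be technical, and 6 arrays limit the precision. The steps were tested on simulated data. Members, role groups and lists were chosen with earlier results of these data known. Named genes are all called members, 31 fixed members where measured, members above the bound in both groups and called pathway genes. Other members are named to account for each. The motifs were chosen after the changes were known. Alternatives covered scaling, filters on level, the probe set, array weights, variance models with a trend or robust, blocking on the replicate number, leaving out each array, a threshold of 0.01 and a minimum change of 0.26. Figures were drawn with matplotlib 3.10.9.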

Additional observations from a re-analysis of the deposited data

How the results depend on the processing

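The 8 called members kept their direction under each of the 15 to 17 alternatives in which they were tested. Aifm1, Casp8ap2 and Mcl1 kept their calls in every one of them except the minimum change of 0.26 and, for Mcl1, the threshold of 0.01. The other 5 lost theirs in 6 to 10 alternatives each. The count of higher members, 6 as reported, was 0 at a threshold of 0.01 and 0 with a minimum change of 0.26, 2 among genes above the background bound, 3 after quantile normalization and 1 with the replicate block. It was 8 with array weights and 4 with arrays centred. With 1 array left out it was 1 to 7. The count of lower members, 2 as reported, was 1 among genes above the bound, where fewer genes were tested, and 0 with a minimum change of 0.26. It was 3 with array weights and 3 with arrays centred. With 1 array left out it stayed at 2. Of the other pathway genes, 1 higher and 1 lower as reported, 0 and 0 passed at 0.01, 0 and 0 with the minimum change, 0 and 2 with arrays centred and 0 and 0 with the replicate block, and 3 were lower with array weights. With 1 array left out 0 to 1 were higher and 0 to 2 lower. Over all genes, 1227 higher and 1086 lower as reported, the counts were 449 and 419 at a threshold of 0.01, 478 and 400 among genes above the bound, 273 and 155 with the minimum change and 744 and 644 with the replicate block, and 1877 were higher with array weights. With 1 array left out they were 609 to 1318 higher and 531 to 1043 lower. For Birc2 the change was -0.29 with the probe set that carries its own symbol, an alternative chosen after seeing the data, against 0.19 as reported, and -0.05 with the mean of both sets. The causes of these differences were not tested. Of the 15 named members that were not called, Bok, Casp2 and Cycs passed under 2 to 4 alternatives, and Birc2 passed as lower with the probe set of its own symbol. The replicate numbers were not taken as pairs: deviations of same-numbered arrays correlated across genes at -0.108, 0.057 and -0.108, and no array correlated best with its own number. With the replicate block Bcl2l1, Bid, Casp12, Tnfsf13b and Traf3ip3 lost their calls, at limma adjusted p of 0.0516 to 0.110, in a fit with fewer residual degrees of freedom. Signal limits these results, since 53 of the 58 genes lay below the background bound in both groups.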

Other observations

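Among the 39 other pathway genes that did not pass, those with the lowest adjusted p were named here after their values were seen. Bnip3, a mitophagy receptor of the mitochondrial outer membrane, had 5.68, 5.54 and 5.53 on the cadmium arrays and 5.82, 5.89 and 5.71 on the control arrays. Its groups did not overlap, and the change was -0.22 (limma adjusted p = 0.0866). Dap3, a protein of the mitochondrial ribosome, changed by -0.14 (limma adjusted p = 0.103). Ikbkg, the regulatory subunit of the IκB kinase, changed by 0.13, and Relb, an NF-κB subunit, by 0.16 (limma adjusted p = 0.111 and 0.117). Nfkbib, an NF-κB inhibitor, changed by 0.18 and Tab3, a partner of Tak1, by -0.18 (limma adjusted p = 0.14 and 0.149). All 6 were below the background bound in both groups.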
